A study of Arabidopsis thaliana with 2 samples.

Results

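This account covers 62 nuclear genes of Arabidopsis thaliana whose array signal without iron lay furthest above that of transcripts of like brightness, in sorted root pericycle cells. They are 62 of 6243 eligible probe sets (6229 genes), and of 22746 plant probe sets in all. The members were chosen by their own readout. The difference of a probe set is its log2 value on the -Fe array less its log2 value on the +Fe array. All plant probe sets were ranked by mean log2 value and split into 20 bins of equal size, and the median difference of its bin was subtracted from each. The result is called here the relative difference. A member names 1 nuclear gene, reaches at least 0.858 (the median over all plant values) on at least 1 of the arrays, and has a relative difference of 0.585 or more, which is about 1.5-fold. Since both values of a gene decided its membership, all differences below describe the members and test nothing.

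By their labels the 2 groups differ in the last medium. In the -Fe group, roots were moved to medium in which 0.3 mM ferrozine, a chelator of ferrous iron, replaced the iron salt. In the +Fe group, roots were moved to +Fe medium, and the standard medium holds Fe(III)-EDTA. Both had first grown for 6 days on the standard medium, stayed 24 h on the new one and were 7 days old, ecotype Columbia, with the GFP reporter J2661 marking the pericycle. Cells were protoplasted from cut roots and sorted by fluorescence, so both groups carry whatever protoplasting and sorting do to transcripts. One array per condition, labelled replicate 1, was analysed, so no difference has a replicate check here and no p-value could be computed. The authors' deposited q values, from a test not described, are given further below. "Higher" refers to this pair of arrays.

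The pericycle surrounds the vascular tissue of the root, inside the endodermis. It passes nutrients, iron among them, between the cortex and the xylem, and lateral roots start in it. Plants short of iron are known to acidify the soil, reduce ferric iron and import it through the epidermis, under bHLH transcription factors some of which are active in the stele. Many enzymes of redox chemistry and specialised metabolism need iron or haem. In bulk RNA of sorted cells, fewer cells of a type and less RNA per cell cannot be told apart.

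Plant values without iron had a median of 0.866 (arbitrary linear units) and spanned 0.329 to 83.5. Those with iron had a median of 0.852 and spanned 0.484 to 62.8. Dim probe sets read lower and bright ones higher without iron: the bin medians ran from -0.44 in the dimmest bin to 0.63 in the second-brightest. Of the eligible probe sets, 5617 of 6243 (90.0%) were above 0 as deposited, with a median difference of 0.35, and their median relative difference was 0.00. The relative difference places each gene against that trend. Of 25 markers of 7 root cell types, 8 were measured, 5 passed the filter and none was a member. Since 0.993% of all eligible probe sets are members, 0 of 5 is near the background and is no result about the markers. Among pericycle and stele markers, 2 of 5 were measured. LBD16, a transcription factor of lateral root founder cells, read 2.26 without iron and 1.60 with iron, and LBD29 was below the filter on both arrays. Measured means here that a probe set is assigned to that gene alone. Since 8730 plant probe sets have no gene assigned and 503 have several, the other markers may be on the array under such probe sets, and the labelled cell type could not be checked against them. The root hair marker EXPA7 read 0.820 without iron and 1.06 with iron (-0.44), and EXPA18 read 0.802 without iron and 0.993 with iron (-0.38). The endodermis marker GSO1, a receptor kinase of barrier formation, read 1.44 without iron and 1.46 with iron (-0.41). The phloem marker OPS read 0.866 without iron and 0.768 with iron (0.19). EXPA7 and EXPA18 passed the filter of 0.858 only through the array with iron, and OPS only through the array without iron. For these 3 markers the array that let them pass also favours the direction, so no direction is read from them. GSO1 (-0.41) and LBD16 (0.05) passed the filter on both arrays. The cortex markers (2 of 3 measured) summed to 1.02 without iron and 1.34 with iron and were below the filter. None of the xylem and root cap markers was measured. The part of other cell types in the members' values was not tested.

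**Figure D1:**
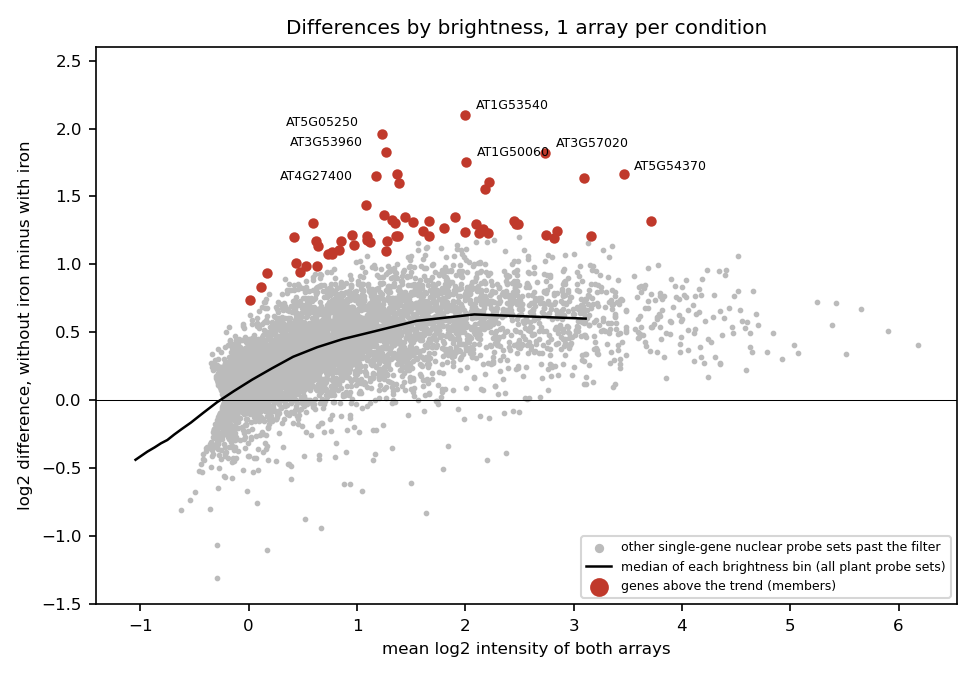
Log2 difference (y axis, without iron minus with iron) against mean log2 intensity (x axis) for single-gene nuclear probe sets past the filter, 1 point each, with the 62 members in red and the median of each of the 20 brightness bins as a black line. The line climbs from -0.44 to 0.63, and the members lie along the upper edge of the cloud, from the 12th bin up.

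The background share is 62 of 6243, or 0.993%, a figure the rule itself sets. Another 68 eligible probe sets lay at least as far below the trend. Only 10 members had a relative difference of 1 or more, 0.16% of eligible probe sets, and 52 lay between 0.585 and 1. The median member was 2.36-fold higher in the deposited values and 1.61-fold higher against the trend, with ranges of 1.67-fold to 4.28-fold and 1.5-fold to 2.76-fold. A difference of at least 2-fold as deposited was seen at 56 of the 62 members, against 107 eligible probe sets in all (1.71%), which follows from the choice. Relative differences of members were 2.41 to 6.54 times the robust SD of their bin, which measures how genes of like brightness scatter, not how replicates do. That SD was 0.161 in the 12th bin and 0.246 in the brightest. In the 4 brightest bins lay 44 members (71.0%), against 33.7% of eligible probe sets. No member came from the 10 dimmest bins, where few probe sets were eligible: 276 in the 10th bin, 10 in the 9th and fewer below. The threshold was fixed while the SD was wider in brighter bins, so these shares are no result about the members. Members numbered 11 of 556, 11 of 554, 14 of 524 and 8 of 469 eligible probe sets in the 17th to 20th bins, whose SD ran from 0.222 to 0.246.

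At the threshold, the 3 members just inside were AT5G23590, AT3G19370 and AT4G39970, at 0.59, 0.59 and 0.59. The 3 genes just outside were AT1G11330, AT4G14500 and AT5G12410, each at 0.57. AT1G11330 read 1.72 without iron and 0.926 with iron, and AT4G14500 read 8.56 without iron and 3.72 with iron. The values on both sides of the threshold thus differ little. AT1G65570, scpl31 and AT4G39970 read below the filter with iron (0.812, 0.810 and 0.784) and passed it only through the array without iron (1.56, 1.45 and 1.31).

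**Figure D2:**
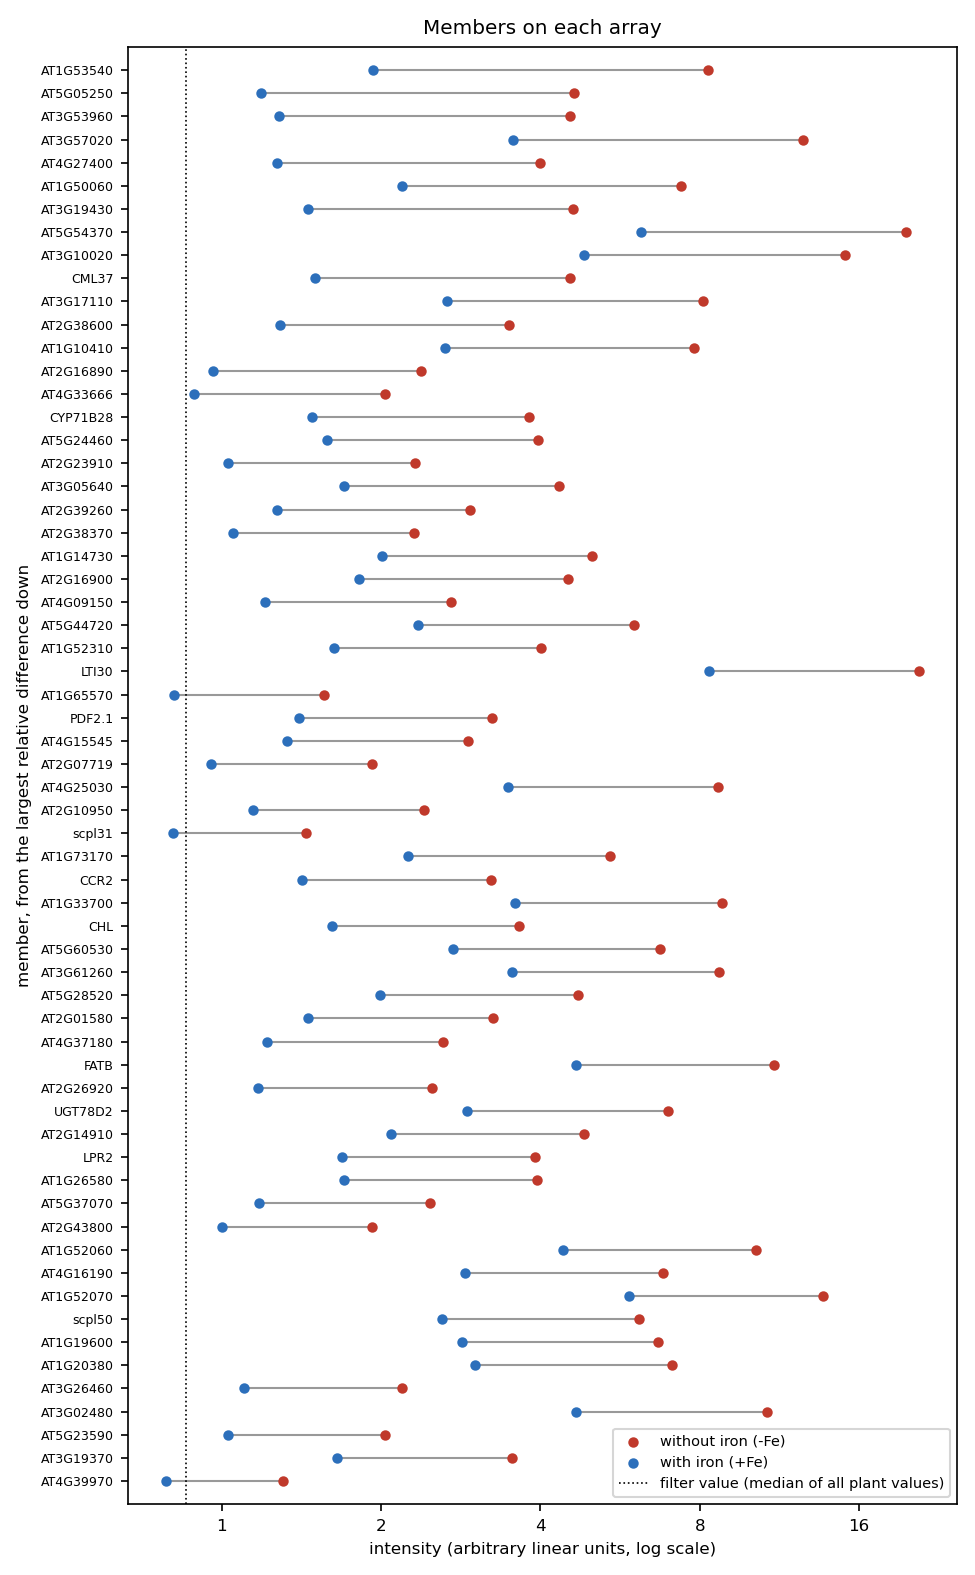
Intensity of each of the 62 members (x axis, log scale) without iron in red and with iron in blue, joined by a line, in order of relative difference from the top. Every red point lies right of its blue point, from 1.31 against 0.784 at AT4G39970 to 20.8 against 8.33 at LTI30.

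A group of 6 members are related to late embryogenesis abundant (LEA) proteins, a class of hydrophilic proteins best known from drying seeds and water-stressed tissue. Their relative differences ran from 0.59 to 1.14, and as deposited they were 2.29-fold to 3.17-fold higher without iron. AT4G27400, an LEA-related gene, read 4.00 without iron and 1.27 with iron. AT3G19430, likewise LEA-related, read 4.61 without iron and 1.46 with iron. AT5G54370, an LEA-like gene, read 19.6 without iron and 6.20 with iron. These 3 had relative differences of 1.14, 1.08 and 1.06, all at least 2-fold. LTI30, a dehydrin also known as XERO2 that is induced by cold and abscisic acid, read 20.8 without iron and 8.33 with iron, a relative difference of 0.72. AT5G60530, an LEA-related gene, read 6.73 without iron and 2.74 with iron, and AT3G02480, of an LEA family, read 10.7 without iron and 4.67 with iron. Their relative differences were smaller, at 0.66 and 0.59.

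Other listed LEA and dehydrin genes did not stand with these 6. Of 22 listed, 13 were measured, 11 passed the filter, and the 5 that were no members lay between -0.30 and 0.12. COR47, a dehydrin of cold and drought responses, read 48.8 without iron and 29.6 with iron, yet was at 0.12 once its brightness was taken into account. AT5G60520, the neighbouring locus number of AT5G60530, read 0.837 without iron and 0.986 with iron, at -0.30. AT5G60520 passed the filter only through the array with iron. The list was drawn up with the members in view, so its median of 0.59, against 0.00 over eligible probe sets, carries no separate weight. Nor does its count of 6 members among 11, against 0.993% of all eligible probe sets.

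The largest relative difference was that of AT1G53540, a class I small heat shock protein, which keeps unfolding proteins soluble. It read 8.27 without iron and 1.93 with iron, a deposited difference of 4.28-fold that came to 2.76-fold against the trend. In the authors' deposited table its q value was 0.0523, so the gene furthest above the trend was not among those with q under 0.05. Its relative AT2G29500 read 3.14 without iron and 1.87 with iron, a relative difference of 0.24. Among 20 other heat shock genes 6 were measured and 4 passed the filter, and these lay between -0.23 and 0.07. AT2G20560, a DnaJ-type co-chaperone gene, read 2.47 without iron and 1.65 with iron (0.07), and Hsp70-2, a cytosolic chaperone, read 2.69 without iron and 2.22 with iron (-0.23). AT1G53540 was thus the only member among the listed heat shock genes past the filter. AT5G23590, a J-domain protein outside these lists, read 2.04 without iron and 1.03 with iron and was among the members nearest the threshold.

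CML37, a calmodulin-like calcium sensor induced by wounding, read 4.55 without iron and 1.50 with iron, with a relative difference of 1.01. Its close relative CML38 read 1.90 without iron and 1.32 with iron (0.14), and AT1G76640, another calmodulin-like gene, read 1.43 without iron and 1.32 with iron (-0.21). Of 19 genes of calcium, touch and wound responses 4 were measured, all 4 passed the filter, and CML37 was the only member. A count of 1 among 4 is too small to be read against the 0.993% of all eligible probe sets.

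AT3G10020, a gene of unknown biochemical role that is induced when oxygen is low, read 15.1 without iron and 4.84 with iron, a relative difference of 1.04. Of 47 low-oxygen genes 24 were measured and 16 passed the filter, and AT3G10020 was the single member, or 1 of 16. The others lay between -0.34 and 0.49. AT5G66985, also induced by low oxygen, came closest, reading 2.35 without iron and 1.22 with iron. PDC2, a pyruvate decarboxylase of fermentation, read 4.53 without iron and 2.74 with iron (0.10). The median over the 16 was 0.06, against 0.00 over eligible probe sets, and none of the 16 lay below the trend by the same size. Members made up 0.993% of all eligible probe sets, and 68 of 6243 lay at least as far below the trend. Counts of 1 and 0 among 16 genes are too small to be read against these shares.

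Secreted and defence-related members included 3 jacalin-type lectins, proteins that bind mannose and related sugars. AT5G28520 read 4.71 without iron and 1.99 with iron. AT1G52060 read 10.2 without iron and 4.40 with iron. AT1G52070 read 13.7 without iron and 5.89 with iron. Their relative differences were 0.66, 0.62 and 0.61. AT1G52060 and AT1G52070 lie next to each other on chromosome 1, and AT1G52050, the gene just before them, read 5.05 without iron and 2.32 with iron, a relative difference of 0.54 just under the threshold. JAL22, a lectin of chromosome 2, read 1.38 without iron and 0.858 with iron and was at 0.53. Past AT1G52070 the next measured gene, AT1G52080, was at 0.24, and AT1G52000 and AT1G52100 in the same stretch were below the filter. JAL34 and JAL33, lectins of chromosome 3, were at 0.15 and -0.02. AT2G25980, another jacalin-type lectin, read 1.17 without iron and 1.31 with iron, at -0.40. In all, 32 lectin genes of this type were listed, 17 measured and 8 past the filter, of which 3 were members and the other 5 lay between -0.40 and 0.54. This list too was drawn up with the members in view. Its 3 of 8, against 0.993% of all eligible probe sets, thus carries no separate weight. These neighbouring lectin genes are similar in sequence, and whether their probe sets bind each other's transcripts was not tested.

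**Figure D3:**
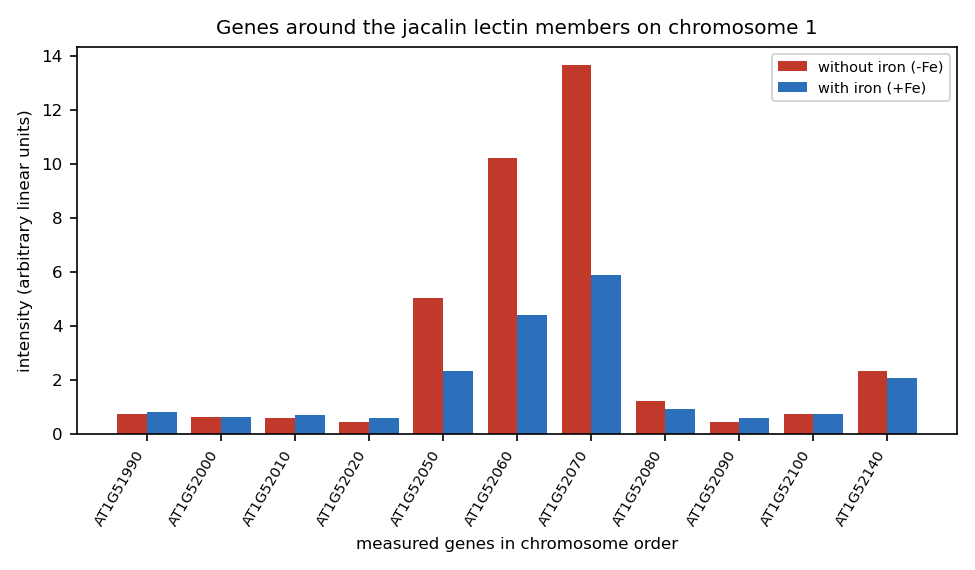
Intensity (y axis, arbitrary linear units from 0) without iron in red and with iron in blue for the measured genes from AT1G51990 to AT1G52140, in chromosome order on the x axis. AT1G52050, AT1G52060 and AT1G52070 read 5.05, 10.2 and 13.7 without iron against 2.32, 4.40 and 5.89 with iron, while the genes on either side read at most 2.34.

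AT1G50060, a secreted CAP protein of the family of the defence protein PR-1, read 7.39 without iron and 2.19 with iron, with a relative difference of 1.12. Of 21 listed genes of this family 18 were measured, but only 6 passed the filter. The other 5 of these lay between -0.66 and 0.41, AT4G33730 lowest, at 0.808 without iron and 1.15 with iron. AT4G33730 passed the filter only through the array with iron. AT2G19970, the highest of the 5 at 0.41, passed it only through the array without iron (0.985, against 0.751 with iron). No direction is read from either. PDF2.1, a plant defensin, read 3.24 without iron and 1.40 with iron (0.70). The related defensin genes LCR69 and LCR68 read 63.5 and 50.8 without iron against 39.9 and 34.6 with iron, at 0.07 and -0.05. PDF2.5, a further defensin gene, read 0.785 without iron and 0.994 with iron, at -0.41, and passed the filter only through the array with iron. Of 7 defensin genes listed 6 were measured and 4 passed the filter. AT3G26460, related to the major latex proteins, read 2.19 without iron and 1.10 with iron. In each of the CAP and defensin lists 1 gene was a member. Such counts are too small to be read against the 0.993% of all eligible probe sets.

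Enzymes of specialised metabolism formed another group of 6 members, with relative differences of 0.63 to 1.22. AT3G57020, a strictosidine synthase-like gene, read 12.5 without iron and 3.55 with iron, 3.52-fold higher as deposited. Its neighbours by locus number, AT3G57010 and AT3G57030, read 19.4 and 6.63 without iron against 13.0 and 4.41 with iron, at -0.02 and -0.04. AT2G16890, a glycosyltransferase of the UGT family, read 2.38 without iron and 0.962 with iron (0.92). CYP71B28, a haem-containing cytochrome P450, read 3.81 without iron and 1.48 with iron (0.85). UGT78D2, which attaches glucose to flavonols and anthocyanins, read 6.96 without iron and 2.90 with iron (0.63). The related UGT78D1 and UGT78D3 were below the filter on both arrays. CCR2, a cinnamoyl-CoA reductase of the lignin branch, read 3.22 without iron and 1.42 with iron (0.67). AT2G23910, a reductase-like gene with a Rossmann fold, read 2.32 without iron and 1.03 with iron (0.78). HCT, the other phenylpropanoid gene past the filter, read 26.6 without iron and 18.3 with iron and was at -0.06.

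Members grouped as related to transport, redox chemistry or metals were 5. AT3G53960, an NPF transporter gene (a family that carries nitrate or peptides), read 4.54 without iron and 1.28 with iron, a relative difference of 1.32. AT1G14730 belongs to the cytochrome b561 family, transmembrane haem proteins some of which reduce ferric iron. It read 5.01 without iron and 2.01 with iron, at 0.73. LPR2 is a multicopper oxidase, and its homologue LPR1 oxidises ferrous iron in root tips short of phosphate. LPR2 read 3.91 without iron and 1.69 with iron (0.63), and LPR1, no member, read 1.90 without iron and 1.09 with iron (0.41). The other cytochrome b561 genes did not share the position of AT1G14730: ACYB-2, CYB-1 and AT1G26100 were at 0.14, -0.05 and -0.16. AT5G44720, of a family that binds the molybdenum cofactor, read 6.00 without iron and 2.35 with iron (0.72). CHL, a plastid lipocalin that protects membrane lipids from oxidation, read 3.65 without iron and 1.61 with iron (0.67).

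None of the listed genes of iron regulation, uptake, transport or storage was a member: 49 were listed, 14 measured and 9 past the filter. With 0.993% of all eligible probe sets being members, a count of 0 among 9 genes is near the background and is no result about iron genes. The 7 iron regulators past the filter lay between -0.35 and 0.27, with a median of 0.06. PYE, a bHLH regulator known from the pericycle, came nearest to the threshold, reading 1.65 without iron and 1.09 with iron. The lowest was bHLH115, at 4.07 without iron and 3.35 with iron. AT3G43630, a vacuolar iron transporter-like gene, lay below the trend at -0.83. IRT1, FRO2 and the ferritin gene FER1 had no single-gene probe set in the table used, so their levels were not analysed here.

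**Figure D4:**
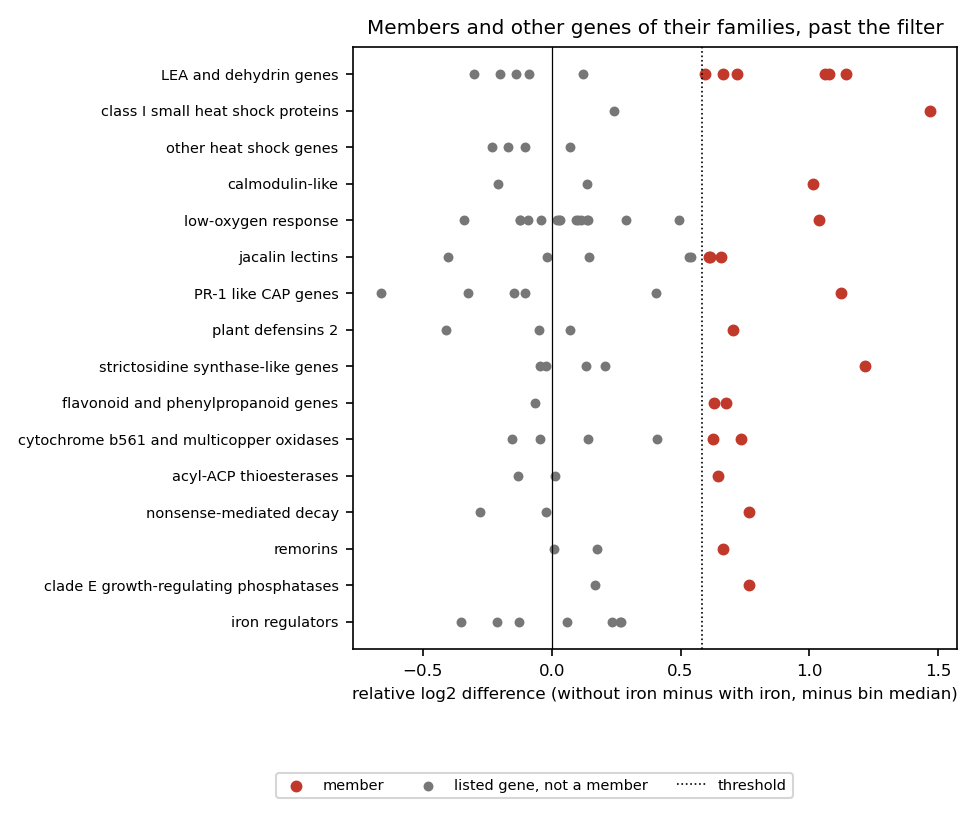
Relative log2 difference (x axis) of members in red and of other genes of the same families or lists in grey, past the filter, 1 row per family or list. The LEA row is split between 6 members at 0.59 to 1.14 and 5 genes at -0.30 to 0.12, and no iron regulator passes 0.27.

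A group of 7 members act on lipids, sugars or phosphate esters, at 0.59 to 0.93. AT2G38600, of the acid phosphatase family, read 3.49 without iron and 1.29 with iron (0.93). AT2G16900, related to phospholipases, read 4.52 without iron and 1.82 with iron (0.73). It is separated by 1 gene on chromosome 2 from the glycosyltransferase gene AT2G16890, which was also a member. FATB, the thioesterase that releases saturated fatty acids in plastids, read 11.1 without iron and 4.66 with iron (0.65), while FaTA, which prefers unsaturated ones, read 0.991 without iron and 0.977 with iron (-0.13). AT1G33700, a glucosylceramidase-type glucosidase, read 8.82 without iron and 3.58 with iron, and AT1G19600, a sugar kinase of the pfkB type, read 6.68 without iron and 2.84 with iron. AT1G65570, of the pectin lyase-like family, and AT4G39970, a HAD-type hydrolase, were the members close to the filter already given.

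Proteases were 4 members, all between 0.60 and 0.68. The serine carboxypeptidase-like genes scpl31 and scpl50 read 1.45 and 6.14 without iron, against 0.810 and 2.61 with iron. AT4G16190, a papain-type cysteine protease, read 6.83 without iron and 2.88 with iron. AT1G20380, a prolyl oligopeptidase, read 7.08 without iron and 3.02 with iron. These 4 lay near the threshold, and AT1G20380 and scpl31 dropped below it under some of the other ways of setting the trend described in the closing section.

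Signalling, membrane and nuclear proteins gave 7 members, at 0.62 to 0.77. AT3G05640, a protein phosphatase of type 2C that restrains growth under drought, read 4.34 without iron and 1.70 with iron (0.77). Its relative AT3G16800 read 6.39 without iron and 3.67 with iron (0.17). AT2G39260 encodes UPF2, a factor of nonsense-mediated mRNA decay, and read 2.95 without iron and 1.27 with iron (0.77), while UPF3 of the same pathway read 2.03 without iron and 1.51 with iron (-0.02). AT3G61260, a remorin of membrane nanodomains, read 8.69 without iron and 3.54 with iron (0.66), against 0.18 for the related remorin AT2G45820. AT1G52310, a kinase with a lectin domain, read 4.02 without iron and 1.63 with iron. AT2G43800, a formin that nucleates actin, read 1.92 without iron and 1.00 with iron. AT4G37180, of the HRS1 family of MYB-related factors, read 2.61 without iron and 1.22 with iron, and AT2G10950, a BSD-domain protein, read 2.41 without iron and 1.15 with iron.

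The remaining 17 members are given no role here. AT5G05250 was the gene with the largest multiple of its bin's SD, 6.54. It read 4.62 without iron and 1.19 with iron, a relative difference of 1.45. AT3G17110, listed by the reference as a transcribed pseudogene and the only member that is not protein coding, read 8.11 without iron and 2.67 with iron (0.97). AT1G10410 read 7.79 without iron and 2.65 with iron (0.93). AT4G33666 read 2.03 without iron and 0.885 with iron (0.88). AT5G24460, AT2G38370 and AT4G09150 followed at 0.82, 0.75 and 0.72. The other 10 lay between 0.59 and 0.69.

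AT2G07719 was 1 of these 10, reading 1.93 without iron and 0.956 with iron (0.69). It lies in the part of chromosome 2 that carries a copy of the mitochondrial genome, and its probe set, of the _s_at type, can bind related transcripts, so the source of its signal is uncertain. The next gene, AT2G07721, read 0.769 without iron and 1.65 with iron, at -1.34, and passed the filter only through the array with iron. Nothing is read from the contrast between these neighbours.

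By chromosome, members numbered 19, 13, 12, 8 and 10 on chromosomes 1 to 5, or 30.6%, 21.0%, 19.4%, 12.9% and 16.1%. Eligible probe sets divided as 25.8%, 14.7%, 20.3%, 14.5% and 24.7%. Within 3 genes of each other in the reference gene order lay only the AT1G52060 and AT1G52070 pair and the AT2G16890 and AT2G16900 pair. Genes that lay within 3 genes of a member, passed the filter and were no members numbered 84. Their median relative difference was -0.04, and 34 of the 84 were above 0. Their range was -1.34 to 0.54, AT1G52050 being the highest.

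In the authors' deposited table, whose test is not described in the sources used, 56 of the 62 members had a q value under 0.05. Over eligible probe sets the share was 43.3%. The q values come from the same contrast as the rule, so nothing is read from this difference. The 6 with q of 0.05 or more in the authors' deposited table were AT1G53540, AT4G33666, AT2G23910, AT1G65570, scpl31 and AT4G39970, at 0.0509 to 0.0913. The median over members in the authors' deposited table was 0.00247 and the lowest 8.5e-09. No member had a second single-gene probe set, so none could be read again on the same arrays.

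**Figure D5:**
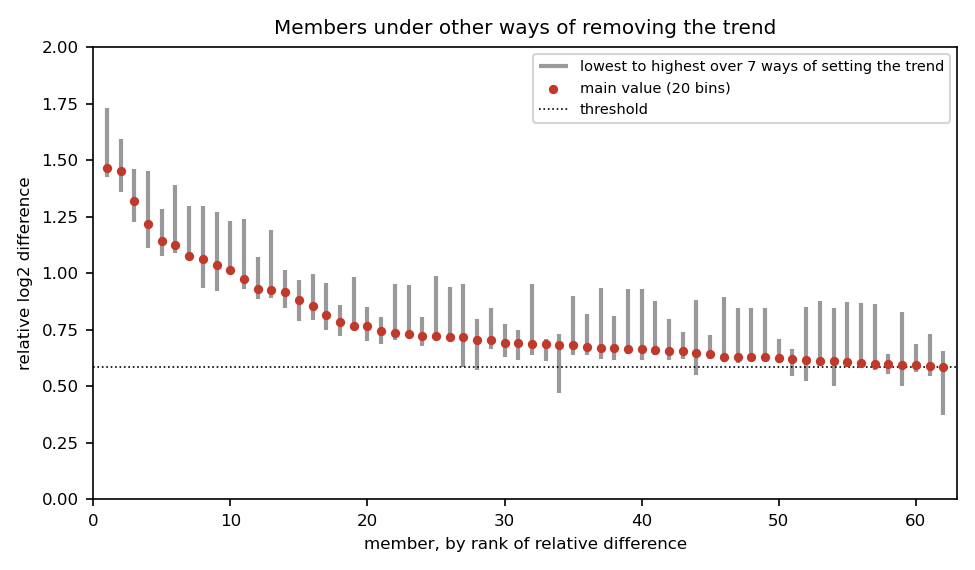
Relative log2 difference of each member (y axis) by rank (x axis), with the main value as a red point and the lowest to highest value over 7 ways of setting the trend as a grey bar. The first 15 members keep values from 0.79 to 1.73, and 13 members of lower rank reach below the dotted threshold at 0.585.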

How the data were processed

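The authors deposited intensity values on a linear scale with medians under 1, in a column for each array. How they were background-corrected, summarised and normalized is not stated in any label or header. Per the labels' protocols, biotin-labelled cRNA from amplification in successive rounds was hybridised. A q-value for each probe set was deposited too, by a test that no label describes. Of 22801 probe sets 55 were controls. Probe sets were named through GEO's platform annotation, which paired 13513 of them with 1 gene. Names and locus codes were updated by gene ID through the reference gene table of assembly TAIR10.1, which 13436 of these matched. The other 77 kept the platform's name. By locus code 13415 were nuclear. The reference also gave gene type and gene order. Only 11 of the 62 members have a gene name there. Roles of the others are background knowledge of the locus codes, and role groups were set by hand after the members were known. The members and lists were chosen with earlier results of these data known. Named genes were the 15 largest relative differences, up to 6 per group, and those nearest the threshold, at the ends of the intensity range or next to another member; the rest are named within their role group. The procedure was run in Python 3.11.15 with numpy 2.4.6, pandas 2.3.3 and statsmodels 0.14.6. It was also run on simulated data, in which the added changes left the mean log2 value of each gene unchanged. That run checks the arithmetic only. Promoter motifs and protein comparisons were not analysed here. With 1 array per condition the number of arrays limits the precision. The labels mention 3 biological replicates per line, but the deposited values used here held only replicate 1 of each condition.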

Additional observations from a re-analysis of the deposited data

How the results depend on the processing

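The 62 members were recomputed under 13 other settings. The number stayed within 1.5 times of 62 with a lowess curve in place of bin medians (62, sharing 60 members), with 10 bins (62, sharing 58) or 40 bins (57, all members), after quantile normalization (66, sharing 60) and after removing a fitted offset and scale (50, all members). It also did so without the filter (62), with a filter at the 75th percentile of 1.66 (59), with both values past the filter (59) and without _s_at and _x_at probe sets (61). With the median difference past the filter set to 0 there were 149, which held 58 of the members, and as deposited, with no trend removed, 1397, which held all 62. These settings leave the trend with brightness in place. A 2-fold threshold left 10, and a pseudocount of 1, which is close to most values, left 16. Member by member, 7 ways of setting the trend were compared. They were the main bins, lowess, 10 bins, 40 bins, quantile normalization, the median difference set to 0, and the offset and scale removed. The values as deposited and the pseudocount, which left only 16 members, were not among them. Over these 7, 49 members stayed past the threshold throughout and 13 did not. Among these 13 were scpl31 (lowest 0.47), AT4G39970 (0.37), AT3G02480 (0.50), AT1G52070 (0.50), AT1G52060 (0.52) and FATB (0.55). No member reached 0 or below. For the 15 members of largest relative difference, 91 of 120 recomputed values moved by less than the SD of their bin and none reversed. Alternatives for promoter windows and for platform gene titles were not run. No paired analysis was possible because each condition had 1 array.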

Other observations

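Besides the 62 members, 62 other plant probe sets past the filter lay at least as far above the trend and could not be members. Of these, 61 had no gene in the platform's probe table and 1 named a single gene outside the nuclear set. They were counted and are not named here.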
